A study of Oryza sativa with 8 samples.

Results

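Rewatered and drought-treated wild type rice seedlings were compared by RNA-seq, using 4 of the 8 libraries of the series, 2 from recovery and 2 from drought. All were of the MH63-WT genotype, an indica rice, and the tissue is labelled only as seedling. Drought plants had grown for 14 days with ample water and then had watering stopped for 15 days, ending at a relative soil water content of about 5%. Recovery plants went through the same 15 days and were then watered fully for 4 days. Normal plants, never stressed, were harvested with the drought plants and gave 2 further libraries that entered the fit and are shown beside the results. Each replicate held at least 30 seedlings. The remaining 2 libraries, from drought-treated osbzip23 plants, were left out because their rows do not correspond to the wild type rows. Recovery plants were 4 days older than the others, so age and rewatering cannot be told apart.

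In plants, loss of soil water raises abscisic acid, closes stomata, slows photosynthesis and growth, and induces protective proteins and enzymes of osmolyte synthesis. Watering lets stomata reopen and growth resume. Which of these functions the rows below belong to was not tested, because none of the gene IDs matched the reference gene table (0 of 59903). An ID printed here is the label of a row, and no sequence is shown for it. For the same reason the drought label was not checked against a known drought-induced gene. Rows were therefore described by abundance, in CPM, the counts of a row scaled to a library total of 1000000. A CPM value is not corrected for transcript length, so a class groups rows by counts and not by molecules per cell. In seedling RNA, fewer cells of a type and less RNA per cell cannot be told apart.

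The 6 wild type libraries held 37400784 to 42894245 counts. Across rows, log2(CPM + 1) correlated at r = 0.998 within each pair of replicates, at 0.921 between drought and recovery libraries, and at 0.991 to 0.992 between normal and recovery libraries. No pair of replicates was a repeat of a library within sampling noise, as the chi-square of their counts was 4.55 to 7.36 times its degrees of freedom. Of 30074 rows with a wild type count, 22898 passed the filter on low counts, and these held at least 99.96% of the counts of each library. The edgeR quasi-likelihood test called 17280 of them (75.5%) between recovery and drought at an adjusted p under 0.05, 8736 higher in recovery (38.2%) and 8544 lower (37.3%). Each class below is read against these percentages. The CPM values of the recovery and drought libraries did not overlap in 20179 of the tested rows (88.1%).

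Among rows with a mean of at least 1 CPM, the most abundant moved most. Rows were sorted by their mean CPM over the 6 wild type libraries into 5 classes, under 1 CPM, 1 to 10, 10 to 100, 100 to 1000, and 1000 and over. In the 81 rows at 1000 CPM and over, the median absolute log2 fold change was 2.60, against 0.97 over all tested rows. All 81 passed the test, 64 of them with a higher and 17 with a lower level in recovery. A call with at least a 2-fold change was made in 81.5%, against 45.8% of all tested rows. By direction this was 67.9% higher and 13.6% lower, against 25.8% and 19.9% of all tested rows. At least an 8-fold change was seen in 40.7% of them, against 12.9% of all tested rows.

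The smallest typical change was in the 9863 rows at 10 to 100 CPM, with a median absolute log2 fold change of 0.75. Of these rows 85.0% were called, 3757 higher and 4623 lower, but 39.2% with at least a 2-fold change and 7.76% with at least an 8-fold change. In the main fit this was the class in which calls leaned most to lower values, with 44.8% of its calls higher in recovery. With a filter of at least 50 counts in 2 libraries, 40.3% of calls under 1 CPM were higher. A mean under 1 CPM and this filter together favour rows high in a single group. That split is therefore not read as a result about the class. In the class at 10 to 100 CPM, 50.8% of calls with at least a 2-fold change were higher. The 2064 rows at 100 to 1000 CPM stood close to it, with a median of 0.87 and 90.1% called, 1019 higher and 841 lower. Which direction led in that class depended on the scaling, since library size alone gave 936 higher and 939 lower.

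Rows at 1 to 10 CPM changed more than those at 10 to 100 CPM, with a median absolute log2 fold change of 1.13. Of 6813 tested rows 73.9% were called, 2742 higher and 2293 lower, and 54.2% with at least a 2-fold change. Among the 11252 rows under 1 CPM, 4077 passed the filter. Many passed only because they were high in one group, so their median of 1.49 and their 1924 calls describe those rows and are not read as a result about the class. With a filter of at least 50 counts in 2 libraries the median of tested rows under 1 CPM was 2.76, and that of the top class 2.61. The stricter filter and the class edge together favour rows high in a single group. The class under 1 CPM is therefore not ranked against the top class.

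Typical changes of tested rows exceeded the replicate spread in the 4 classes of at least 1 CPM. The median SD between replicates of drought and recovery, on the log2 scale, was 0.34 under 1 CPM, 0.17 at 1 to 10, 0.07 at 10 to 100, 0.042 at 100 to 1000 and 0.036 at 1000 CPM and over. The ratio of the median absolute change to this SD was 6.66 at 1 to 10 CPM, 10.9 at 10 to 100 CPM, 20.6 at 100 to 1000 CPM and 72.8 in the highest class. The smallest absolute log2 change that was called was 0.98 under 1 CPM, 0.28 at 1 to 10 CPM and 0.13 at 10 to 100 CPM. Low rows were thus called only when they changed more, and shares of called rows in different classes do not rest on the same precision.

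**Figure D1:**
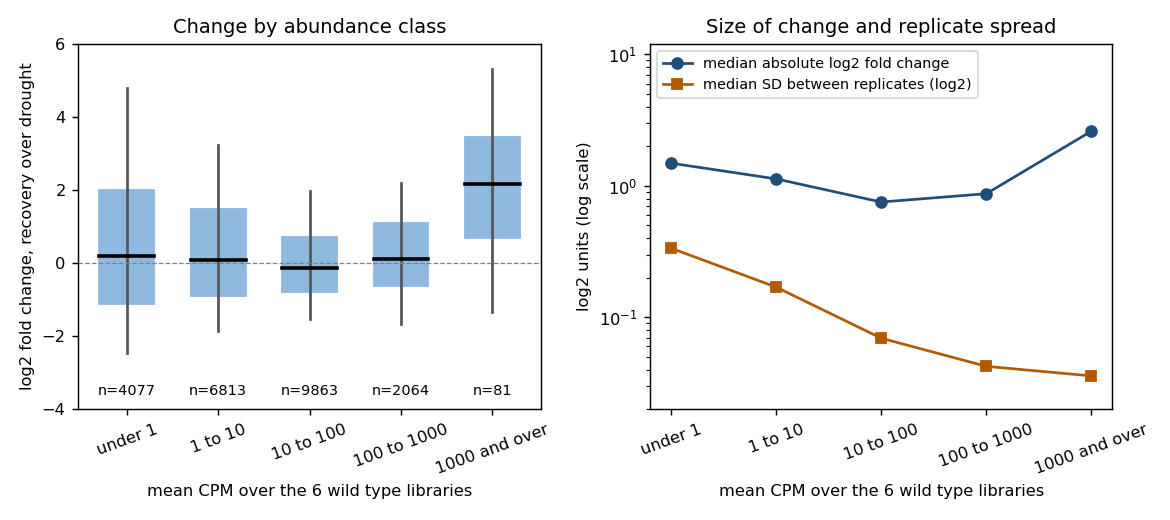
Left, log2 fold change of recovery over drought by abundance class, with the median (black line), the middle 50% of rows (box) and the range from the 10th to the 90th percentile (line); n is the number of tested rows. Right, the median absolute log2 fold change and the median SD between replicates on a log axis. Among classes of at least 1 CPM the change is smallest at 10 to 100 CPM (0.75) and largest at 1000 CPM and over (2.60). The SD falls from 0.34 under 1 CPM to 0.036 in the top class.

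Within the abundant range the change grew with abundance. In steps chosen after the classes were seen, the median absolute log2 fold change was 0.76 at 100 to 200 CPM (1314 rows), 1.05 at 200 to 500 CPM (625 rows), 1.42 at 500 to 1000 CPM (125 rows), 2.47 at 1000 to 2000 CPM (62 rows) and 3.17 from 2000 CPM (19 rows). Over the same steps the replicate SD stayed between 0.032 and 0.045. The share of calls that were higher in recovery went from 51.6% at 100 to 200 CPM to 80.6% at 1000 to 2000 CPM and 73.7% above that. With steps set by the mean of drought and recovery it went from 47.2% to 71.4% and 65.2%. Steps set by the normal libraries alone gave 60.4%, then 91.4% and 95.2%, so the size of this lean depends on the measure. A mean that includes the compared libraries favours large changes in high steps. In the steps from normal libraries the medians were smaller but also rose, at 0.69, 0.90, 1.19, 1.95 and 2.56.

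Whichever libraries set the class by an arithmetic mean, the median absolute log2 fold change at 1000 CPM and over stayed between 2.21 and 2.66, while the split by direction moved with the choice. With the mean of drought and recovery as the measure, each condition having the same weight, 79 rows reached 1000 CPM, 55 called higher and 24 lower, with a median absolute log2 fold change of 2.66. With drought alone as the measure there were 62 rows, of which 8 were called higher and 54 lower, with a median of 2.51. With recovery alone there were 96 rows, 90 higher and 6 lower, with a median of 2.61. Rows picked for a high level in a condition stand high there by choice, so these last splits are descriptions. A mean that includes drought or recovery libraries can also lift a row into the top class through a single high condition. That favours large absolute changes, so the medians from such means are descriptions as well. A geometric mean, which gives less weight to one high condition, left 46 rows at 1000 CPM and over, 36 higher and 10 lower, with a smaller median of 1.66. Under that measure the other classes of at least 1 CPM had medians of 0.72 to 1.14. The 4655 tested rows under 1 CPM had a median of 1.67. A geometric mean moves rows that are low in a single condition to lower classes. That favours smaller changes in the top class and larger ones under 1 CPM. The medians from this measure are therefore descriptions too, and these 2 classes are not ranked against each other.

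**Figure D2:**
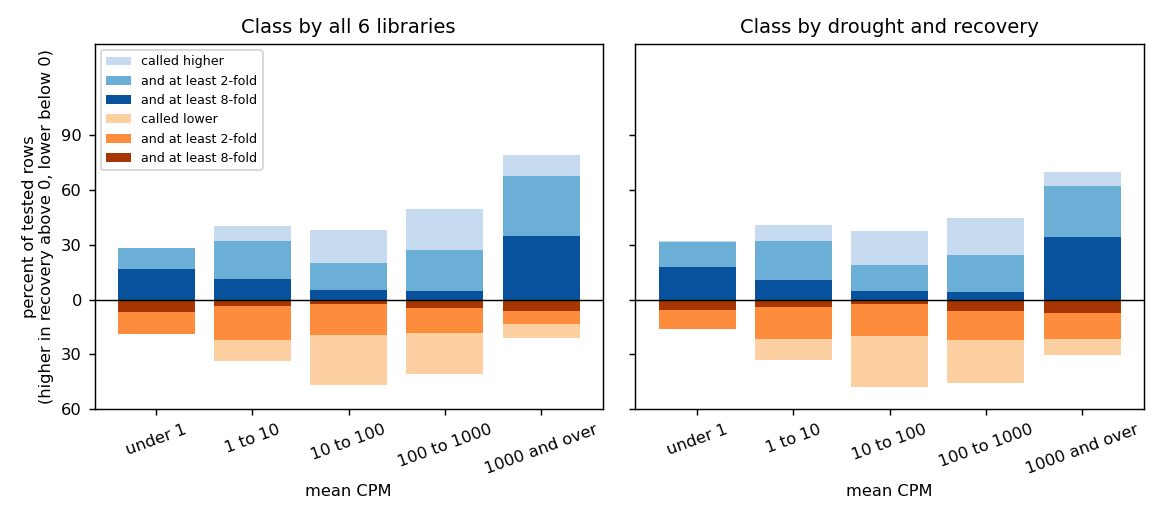
Percent of tested rows called higher (above 0) and lower (below 0) in recovery, by abundance class, with the parts that changed at least 2-fold and at least 8-fold in darker shades. Classes are set by all 6 wild type libraries (left) or by drought and recovery (right); at 1000 CPM and over 64 rows were higher and 17 lower on the left, 55 and 24 on the right.

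Abundance in normal plants gave a measure that used neither drought nor recovery libraries. The 79 rows at 1000 CPM and over in normal plants held 5.60% and 5.66% of the counts in the drought libraries and 19.4% and 19.2% in the recovery libraries, against 15.3% and 15.1% in the normal libraries. The groups did not overlap, and recovery stood above normal as well as above drought. All 79 rows were called against drought, 73 higher and 6 lower, with a median log2 fold change of 2.21. The next class, 2107 rows at 100 to 1000 CPM in normal plants, held 38.9% and 38.5% of the counts in drought and 45.5% and 45.4% in recovery. Of its calls 1234 were higher and 646 lower.

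Rows that were lower in normal plants showed the opposite balance of counts. The 9532 rows at 10 to 100 CPM in normal plants held 43.5% and 43.4% of the drought counts and 32.0% and 32.2% of the recovery counts. The 6836 rows at 1 to 10 CPM held 8.16% and 8.40% of the drought counts and 2.91% and 2.94% of the recovery counts, the latter next to the 2.92% and 2.93% of normal plants. The 8791 rows above 0 and under 1 CPM in normal plants held 3.41% and 3.53% of the drought counts, and 0.23% and 0.24% of the recovery counts. A further 32558 rows had no count in either normal library, and these held 0.446% and 0.474% of the drought counts and 0.0176% and 0.0117% of the recovery counts. Shares of a library add up to a whole, so a larger share of one class lowers the others, and 2 libraries against 2 cannot go below p = 0.333 in an exact permutation test. Rows picked by their level in normal plants also stand high or low there by choice.

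**Figure D3:**
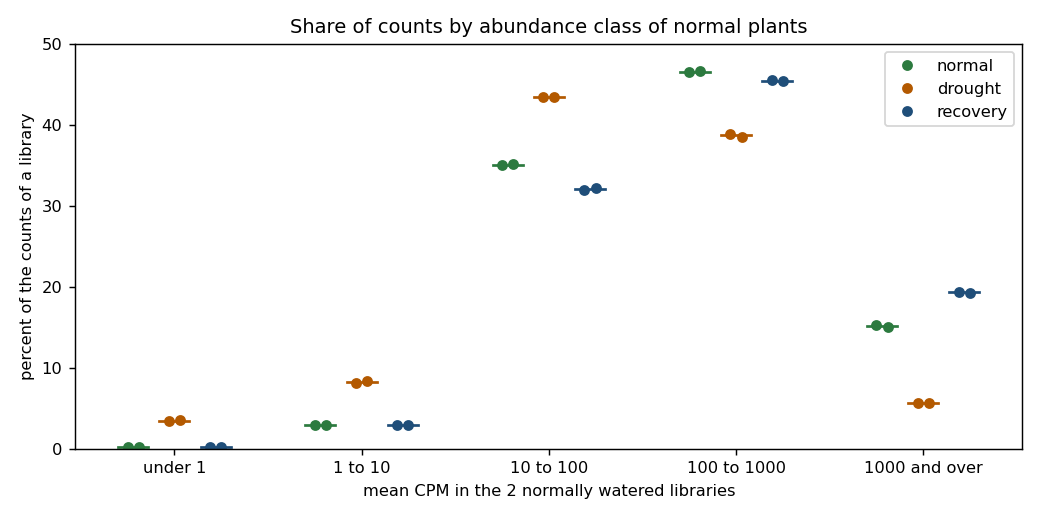
Percent of the counts of each library (points, 2 per group, with their mean as a line) held by rows of each abundance class of normal plants. Drought libraries stand above both other groups in the 3 classes under 100 CPM and below them in the 2 classes above, and the recovery libraries reach 19.4% and 19.2% in the top class against 5.60% and 5.66% in drought.

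From the mean drought to the mean recovery profile, 42.3% of all counts moved from some rows to others. Over all rows this was the sum of the gains in share, and within a class the mean of its summed gains and its summed losses. Between replicates the same measure was 3.09% in drought and 2.16% in recovery. Rows at 100 to 1000 CPM accounted for 41.5% of the moved counts, rows at 1000 CPM and over for 27.7%, rows at 10 to 100 CPM for 27.7% and rows at 1 to 10 CPM for 2.81%. Relative to its own share, the top class moved most, with 71.0% of its counts moved. The values were 39.5% at 100 to 1000 CPM, 32.5% at 10 to 100 CPM, 41.2% at 1 to 10 CPM and 49.9% under 1 CPM. Between the drought replicates, from the top class down, they were 2.49%, 2.62%, 3.39%, 7.50% and 24.2%. The classes were set by means that include drought and recovery libraries, which favours large moves in the top class.

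Gains were held by fewer rows than losses. Of the summed gain, 50% lay in 156 rows, while 50% of the summed loss lay in 264 rows. The largest single loss was 7.40% of all losses and the largest single gain 2.10% of all gains. The top class took 35.3% of the gains and 20.1% of the losses, and rows at 10 to 100 CPM took 21.6% of the gains and 33.7% of the losses.

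The top of the abundance ranking was replaced. The 10 most abundant rows of drought held 8.48% and 8.75% of the drought counts and 0.782% and 0.807% of the recovery counts. They shared 0 rows with the 10 most abundant rows of recovery, all 10 were called lower, and their median rank in recovery was 247.5. The 10 most abundant rows of recovery held 0.692% and 0.680% of the drought counts and 6.27% and 6.28% of the recovery counts, and their median rank in drought was 712. Rows picked for the highest level in a condition are favoured to stand lower in the other, so the direction of these calls is a description. Between replicates of each group the 10 most abundant rows were the same 10. Among the 100 most abundant rows drought and recovery shared 20, and among the 1000 most abundant 494, where the replicates of drought shared 96 and 962.

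Recovery libraries were more concentrated than drought libraries apart from their first rows. The single most abundant row took 3.06% and 3.20% of the drought counts and 0.950% and 0.959% of the recovery counts. The 100 most abundant rows of each library took 19.3% and 19.8% in drought but 23.0% and 22.7% in recovery, and 17.3% and 17.0% in normal plants. Rows needed to reach 50% of the counts numbered 1185 and 1154 in drought, 897 and 914 in recovery, and 1221 and 1234 in normal plants. At an equal depth of 37400784 counts, 25178 and 24977 rows were expected with a count in drought and 25602 and 25898 in recovery.

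Many rows changed abundance class. Of 19601 rows at 1 CPM or more in drought or recovery, 39.4% were in another class after rewatering, and 3.82% moved by 2 classes or more. Between the drought replicates 7.43% of 18173 such rows changed class and 0.0880% moved by 2 or more. Of the rows at 1000 CPM and over in drought, 22.6% (14 rows) stayed in that class, 27 went to 100 to 1000 CPM, 11 to 10 to 100 CPM, 7 to 1 to 10 CPM and 3 to under 1 CPM. The top class of recovery was filled from below, by 67 rows from 100 to 1000 CPM, 11 from 10 to 100 CPM and 4 from 1 to 10 CPM. The most stable starting class was 10 to 100 CPM, where 74.8% of rows kept their class.

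**Figure D4:**
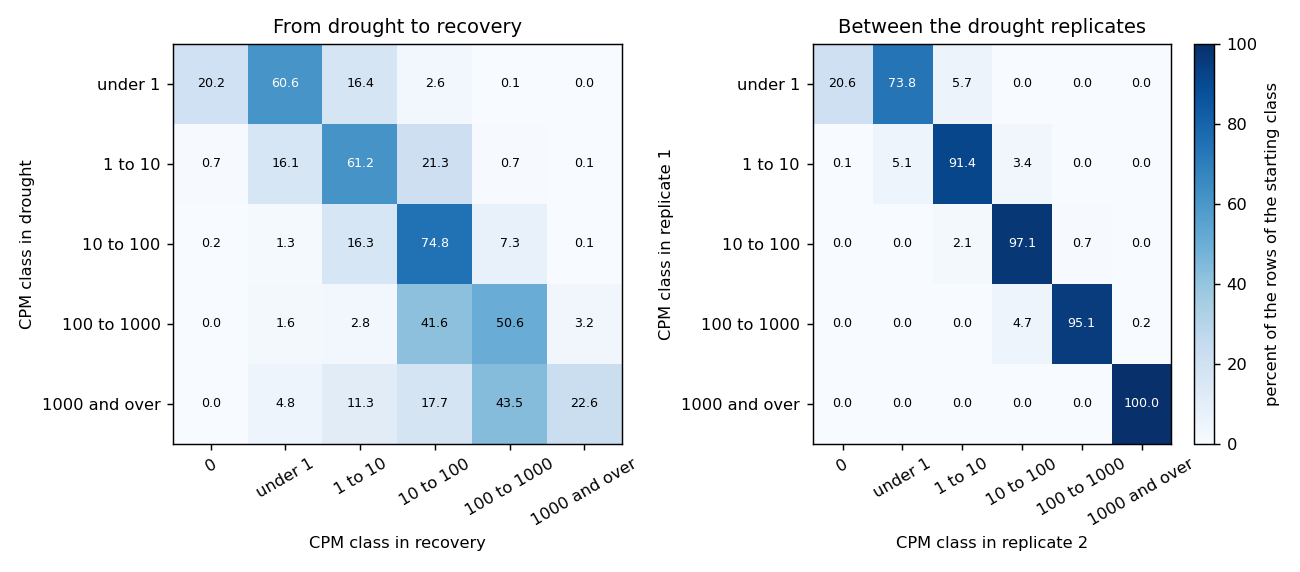
Percent of the rows of each starting class (lines of the grid) that were in each class at the end (columns), from mean drought to mean recovery CPM (left) and between the drought replicates (right). On the left 22.6% of rows at 1000 CPM and over in drought kept that class, against 100% between replicates, and 74.8% at 10 to 100 CPM, against 97.1%.

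The row with the largest gain in CPM was OsMH_10G0340800. It held 675 and 669 CPM in drought, 9501 and 9595 CPM in recovery and 5715 and 5606 CPM in normal plants. Recovery stood above both other groups with no overlap, and the row became the most abundant one of recovery from rank 112 in drought. Its log2 fold change over drought was 3.94 ± 0.04 (SE, edgeR adjusted p = 4.19e-16).

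The second largest gain was in OsMH_07G0270900, the most abundant row of normal plants. It held 1575 and 1471 CPM in drought, 8025 and 8034 CPM in recovery and 6636 and 6559 CPM in normal plants, again with no overlap between groups. The log2 fold change over drought was 2.51 ± 0.04 (SE, edgeR adjusted p = 1.80e-14).

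The largest loss was in OsMH_06G0339400, the most abundant row of drought. It held 30624 and 31989 CPM in drought, 51.6 and 46.9 CPM in recovery and 44.4 and 43.0 CPM in normal plants. The recovery level was 635-fold lower than drought, with a log2 fold change of -9.20 ± 0.06 (SE, edgeR adjusted p = 1.22e-16). It stayed above normal with no overlap in CPM, at 1.13 times the normal mean. The log2 fold change against normal with TMM scaling was 0.36 (edgeR adjusted p = 0.000153). The CPM ratio is without TMM and is smaller, so the size of this difference depends on the scaling. The row with the next largest loss, OsMH_10G0003000, held 19814 and 21295 CPM in drought and 6.96 and 4.50 CPM in recovery. In normal plants it held 1.33 and 0.936 CPM, so recovery stood between both other groups, nearer to normal. Its log2 fold change against drought was -11.70 ± 0.13 (SE, edgeR adjusted p = 2.47e-15).

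The third places of both rankings differed in size of change. The third most abundant row of drought held 5507 and 5409 CPM there and 2859 and 3039 CPM in recovery, a log2 fold change of -0.78 ± 0.04 (SE, edgeR adjusted p = 5.75e-10), and stood at 4172 and 4087 CPM in normal plants. The third most abundant row of recovery went from 158.3 and 157.8 CPM in drought to 6723 and 6531 CPM, a log2 fold change of 5.50 ± 0.04 (SE, edgeR adjusted p = 1.96e-16). In normal plants it held 3714 and 3626 CPM, so recovery stood above both other groups.

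Large turnovers also occurred in the lower classes. At 100 to 1000 CPM, the row with the largest loss had 110442 and 115689 counts in drought, 42 and 31 in recovery and 15 and 6 in normal plants, 2821-fold lower in mean CPM after rewatering. The row with the largest gain in that class had 280 and 353 counts in drought, 80581 and 81407 in recovery and 32710 and 29810 in normal plants, 281-fold higher. At 10 to 100 CPM, the largest loss went from 12461 and 12328 counts to 92 and 52, 157-fold lower in CPM, and the largest gain from 255 and 274 counts to 7469 and 7141, 30.3-fold higher.

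Below 10 CPM the extremes included rows at 0 in one condition. The row with the largest gain at 1 to 10 CPM had 0 counts in both drought libraries and 853 and 891 in recovery, at least 637-fold higher against a floor of 3 counts over both drought libraries. The row with the largest loss at 1 to 10 CPM had 1240 and 1281 counts in drought and 0 in all recovery and normal libraries, at least 767-fold lower against the same floor over both recovery libraries. Under 1 CPM, the largest loss went from 127 and 109 counts to 0 in both recovery libraries, at least 71.9-fold lower, and the largest gain from 0 and 4 counts to 88 and 93. In each of the 10 rows described here for the 5 classes, the drought and recovery libraries did not overlap, which the choice of rows required.

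**Figure D5:**
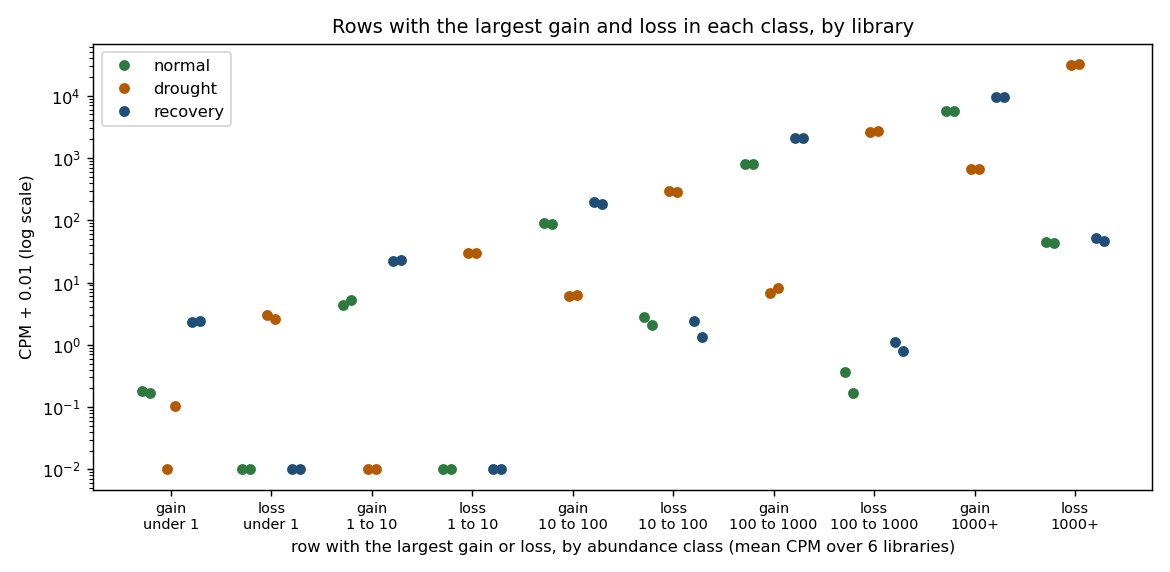
CPM plus 0.01 on a log axis in each of the 6 wild type libraries, for the row with the largest gain and the row with the largest loss in each abundance class. Points at the bottom are libraries with 0 counts; in the top class the gaining row rises from 675 and 669 to 9501 and 9595 CPM and the losing row goes from 30624 and 31989 to 51.6 and 46.9 CPM.

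Rows nearly silent in a condition were mostly of low abundance in the other. There were 496 rows with at most 3 counts over both drought libraries and at least 10 counts in each recovery library, with a median of 0.881 CPM in recovery and a highest mean of 335 CPM. Of these, 374 had at least 10 counts in each normal library. In the opposite direction 254 rows had at most 3 counts over both recovery libraries and at least 10 in each drought library, with a median of 0.737 CPM in drought and a highest mean of 639.9 CPM. Of these, 8 had at least 10 counts in each normal library.

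Over all tested rows, large rises outnumbered large falls. At least an 8-fold rise was called in 2086 rows (9.11% of those tested) and at least an 8-fold fall in 869 rows (3.80%). Rows under 1 CPM made up 672 of the rises and 285 of the falls. At 100 to 1000 CPM the numbers were 95 and 96, 84 and 121 with classes set by drought and recovery, and 74 and 20 with the geometric mean. The 2086 rows held 1.02% and 1.04% of the drought counts and 17.8% and 17.6% of the recovery counts, the values that chose them. In normal plants they held 11.1% and 10.9%. Rows picked for a high level in recovery are favoured to stand high there, so no difference between recovery and normal is read from this. The 869 rows held 15.6% and 16.1% in drought, 0.382% and 0.383% in recovery and 0.462% and 0.457% in normal plants. Their median level was 12.6 CPM in drought, 0.259 CPM in recovery and 0.308 CPM in normal plants, and that of the 2086 risen rows was 0.166, 4.80 and 3.79 CPM.

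The same classes were set beside the other wild type comparisons, which share libraries with this one. For the 81 rows at 1000 CPM and over, the median absolute log2 fold change was 1.97 for drought against normal, 2.60 for recovery against drought and 0.50 for recovery against normal. In the last of these edgeR called 71 of the 81 rows (87.7%), 64 higher and 7 lower, where it called 34.8% of all tested rows, 18.1% higher and 16.6% lower. The called share in recovery against normal rose with abundance, from 26.3% at 1 to 10 CPM to 45.5% at 10 to 100 CPM and 63.4% at 100 to 1000 CPM. Classes differ in precision, so the share over all tested rows is not a like comparison for the top class. For rows at 10 to 100 CPM the medians were 0.64, 0.75 and 0.22 in the same order, with 2207 called higher and 2281 lower in recovery against normal.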

How the data were processed

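The authors deposited 1 table of whole-number counts per gene ID with a column for each library and no normalization, per the file headers. Tools listed in the submitters' processing notes are StringTie 2.1.7, STAR 2.7.10a and fastp 0.23.0, with no role stated. Build, annotation, strand setting and the handling of multi-mapping reads are not given in the sources used here, so counts of paralogous, overlapping or antisense genes are uncertain. The labels state that treatments were repeated on separate batches of seedlings but not that a replicate number marks a batch, so p-values measure the spread between these libraries.

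Counts of the 6 wild type libraries were fitted with edgeR 4.0.16 (R 4.3.3), with TMM scaling, the filterByExpr filter and a quasi-likelihood F-test (two-sided), with 3 residual degrees of freedom. Benjamini-Hochberg adjustment ran over 22898 rows. SE is the log2 fold change divided by the root of the F statistic. CPM values use library totals without TMM. Replicate SDs use log2(CPM + 0.1). The fit was tested on simulated counts of recovery against drought with 22657 rows tested and an equal spread for each row. Of 100 rows changed 2-fold 98% were recovered, of 100 changed 4-fold 100%, with 9 false calls. All changed rows had at least 50 expected counts. Low rows, rows of larger spread and data in which 75.5% of rows are called were thus not covered. Expected row counts at equal depth were computed exactly. Folds against 0 use a floor of 3 counts, which covers counting error only.

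Named rows were the 2 with the largest gain and the 2 with the largest loss in CPM among called rows with groups that did not overlap, and without IDs the same in each class. The comparison, classes and rules were chosen with earlier results of these data known. Alternatives were median-of-ratios and library size scaling, DESeq2 1.42.0, limma-voom (limma 3.58.1), other filters, a fold threshold, the 4 compared libraries alone, a replicate block, each library left out, and other class measures. Class by drought and recovery, finer steps and the direction split by class were added after seeing the data.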

Additional observations from a re-analysis of the deposited data

How the results depend on the processing

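All 4 named rows and 10 further rows described by class or rank kept their direction and call in all alternatives (196 of 196 values). Leaving out each library in turn gave 15953 to 17232 called rows, 8140 to 8742 higher and 7813 to 8498 lower. The replicate block gave 16923 called rows, 8558 higher and 8365 lower, and changed no call of a described row. Same-numbered libraries did not deviate together (r = -0.051 to -0.0013 across rows), so the numbers were not taken to pair libraries. DESeq2 called 16163 rows. Library size scaling lowered log2 fold changes by a median of 0.11 relative to TMM, and gave 8103 higher and 9381 lower, so the larger direction over all rows depends on the scaling.

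When calls also needed an absolute log2 fold change of 1 or more, 10476 rows were called and 4557 of these were lower. The class counts then were 3863 at 10 to 100 CPM, with 50.8% of calls higher instead of 44.8%, and 931 at 100 to 1000 CPM. Under 1 CPM, a filter of at least 50 counts in 2 libraries left 362 called rows, with 40.3% of calls higher instead of 60.0%. In this class that filter favours rows high in a single group, so the split is a description. The median absolute log2 fold change of the tested rows was 2.76 with that filter. Without a filter that median was 2.00. Classes from normal libraries gave 46.8% of calls higher under 1 CPM, and medians of 0.79 at 100 to 1000 CPM and 2.21 at 1000 CPM and over. The geometric mean gave medians of 0.77 and 1.66 and 46 called rows in the top class. Classes from drought and recovery gave 49.3% of calls higher at 100 to 1000 CPM, where library size scaling gave 49.9%, against 54.8%. The top median was 2.66 with the former and 2.49 with the latter. The causes were not tested. Under 1 CPM the smallest absolute log2 change that was called was 0.98, and 0.67 to 0.88 when classes came from normal libraries, the geometric mean or drought and recovery.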
